A study of Mus musculus with 12 samples.

Results

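The miR-191 and miR-425 hairpins lie 384 bases apart on mouse chromosome 9, and their 4 mature arms, mmu-miR-191-5p, mmu-miR-191-3p, mmu-miR-425-5p and mmu-miR-425-3p, are described here in fibrotic mouse liver. The prefix mmu, for mouse, is left out in what follows. The arms were taken by name from a table of raw counts for 1929 mature miRNAs, and all 4 were present and passed the filter on low counts that left 607 miRNAs for testing. The livers came from C57BL/6 mice that all received carbon tetrachloride (CCl4), a liver toxin, by intraperitoneal injection. On top of this, 6 of them had PZH (Pien Tze Huang, a herbal and animal-derived Chinese remedy) placed in the stomach each day, and the other 6 had double distilled water in its place. Each mouse gave 1 small RNA library. The labels state neither age nor sex nor dose, and no uninjured liver was analysed here, so every value is from an injured animal.

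A miRNA is cut from a hairpin precursor as a short duplex of a 5p and a 3p arm, of which usually 1 arm is kept in an Argonaute protein and guides it to messenger RNAs through its seed, bases 2 to 8. Hairpins that lie close together on the same strand can be released from a single primary transcript, but the later steps of cutting, loading and decay act on each arm separately. miR-191-5p is found in very many tissues and is often used, as is miR-425-5p, as a reference for qPCR of miRNAs, on the premise that its level varies little. In human liver cancer cells miR-191 was reported to repress TIMP3, an inhibitor of matrix-degrading enzymes, and in human cells miR-425 was reported to repress NPPA, the natriuretic peptide A gene.

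The mature sequences are shown with the seed in capitals, because the seeds of the 4 arms differ from each other and the arms therefore count as separate guides. Sequences and positions are from RefSeq, build GRCm38.p6, plus strand.
miR-191-5p: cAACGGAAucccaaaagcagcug
miR-191-3p: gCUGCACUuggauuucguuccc
miR-425-5p: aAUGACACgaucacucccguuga
miR-425-3p: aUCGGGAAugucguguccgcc
Within the hairpins, shown next with both mature arms in capitals, the arms flank a loop.
Mir191: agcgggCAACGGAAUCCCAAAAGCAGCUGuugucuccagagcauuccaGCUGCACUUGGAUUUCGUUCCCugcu
Mir425: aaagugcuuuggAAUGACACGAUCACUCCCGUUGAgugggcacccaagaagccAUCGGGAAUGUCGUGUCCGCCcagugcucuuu
The Mir191 hairpin is at chr9:108568319-108568392 and the Mir425 hairpin at chr9:108568777-108568861. No member shared a run of more than 8 bases with any of the 1737 other mature sequences in the RefSeq table. Only miR-425-5p shared its seed with another mature miRNA, miR-489-3p (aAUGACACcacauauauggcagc, chr6:3721922-3721944, minus strand), which had 2 counts in 1 library and 0 in the others.

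The host gene depends on the annotation used. RefSeq places both hairpins inside the span of Dalrd3 (chr9:108567484-108572773, plus strand), which encodes a protein with an anticodon-binding domain. GENCODE M21, on the same GRCm38 build, starts Dalrd3 at 108569886, 1024 bases after the end of Mir425. It places both hairpins in the non-coding gene 4833445I07Rik (chr9:108567533-108569174, plus strand), wholly within the single exon of 1 of its transcripts. The other transcript (108567893-108568774) spans Mir191 without an exon over it and ends before the start of Mir425. GENCODE also lists a miRNA gene on the opposite strand, Gm24083, that covers all 74 bases of Mir191. Whether the counting used strand is not given in the sources used here.

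Total counts ranged from 6065480 to 10436478 in the PZH libraries and from 4961913 to 20211784 in the water libraries. The 4 arms together held 0.604% to 0.819% of the counts of a PZH library and 0.627% to 0.881% of those of a water library. The hepatocyte markers listed for a check of the tissue summed to 202898 to 264104 CPM with PZH and 221357 to 256415 CPM with water, led by miR-122-5p, the defining miRNA of hepatocytes. CPM is the usual depth-scaled count unit, here after TMM scaling, which corrects library totals for differences in composition. No library stood apart in its correlation with the others of its group (medians between 0.983 and 0.990 over miRNAs).

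None of the 4 arms was called between PZH and water livers in the edgeR quasi-likelihood test, at a Benjamini-Hochberg adjusted p under 0.05 over all 607 miRNAs. By that rule 21.3% of tested miRNAs were called. DESeq2 and limma-voom also called 0 of the 4. At an unadjusted p under 0.05 there was 1 of the 4, miR-425-5p, against 196 of the 607. The abundant arm of miR-425 was 1.18-fold as high with PZH as with water, while the abundant arm of miR-191 stood at 0.940 of its level with water, and the ratio of these arms within a library was lower with PZH.

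The dominant product of the locus was miR-191-5p, which ranked 29 among the 607 tested miRNAs by mean level. In the PZH livers its level was 5893, 4700, 5828, 5836, 5367 and 6667 CPM for replicates 1 to 6, against 6276, 5237, 6316, 7534, 5551 and 5555 CPM in the water livers. The ranges overlapped, with PZH replicate 2 lowest of all, below every water liver, and water replicate 4 highest, above every PZH liver. The means were 5715 ± 651 CPM with PZH and 6078 ± 834 CPM with water (SD, n = 6 each), a log2 fold change of -0.09 (SE 0.10, 95% interval -0.30 to 0.12, edgeR adjusted p = 0.616). Without water replicate 4 the log2 fold change was 0.0045 (edgeR adjusted p = 0.989).

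The partner arm miR-191-3p, normally the discarded strand, was less abundant by a mean factor of 499.7 with PZH and 534 with water. It had 76, 100, 134, 104, 119 and 77 counts in PZH replicates 1 to 6, against 192, 169, 84, 109, 140 and 54 counts in the water replicates. In CPM the values ran from 9.29 to 13.4 with PZH and from 8.80 to 13.1 with water. The groups overlapped widely. The means were 11.6 ± 1.43 CPM with PZH and 11.4 ± 1.53 CPM with water (SD, n = 6 each; log2 fold change 0.03, SE 0.14, 95% interval -0.27 to 0.33, edgeR adjusted p = 0.929). The sign turned without water replicate 2 (-0.05) and without PZH replicate 5 (-0.00011).

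The level of miR-425-5p, the guide arm of its hairpin, ranked 69 among the 607. It was 1706, 1155, 1600, 1575, 1633 and 1943 CPM in PZH replicates 1 to 6, against 1290, 1318, 1457, 1555, 1273 and 1271 CPM in the water replicates. Of the PZH livers, 5 were above every water liver and replicate 2 was below every water liver, so the groups overlapped through that mouse alone. Among all tested miRNAs, 61 of 607, or 10%, had groups with no overlap. The means were 1602 ± 256 CPM with PZH and 1361 ± 118 CPM with water (SD, n = 6 each; log2 fold change 0.24, SE 0.11, 95% interval 0.01 to 0.46, edgeR unadjusted p = 0.0401 and adjusted p = 0.132). Without PZH replicate 2 the log2 fold change was 0.33, past the threshold (edgeR adjusted p = 0.0157), and with a filter of at least 10 CPM in 6 libraries it was 0.32 (edgeR adjusted p = 0.0270). Over all alternatives the adjusted p lay between 0.0157 and 0.312. That filter left 344 miRNAs and moved the median log2 fold change of those 344 by 0.09.

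The minor arm miR-425-3p had 35.7, 39.7, 46.6, 44.2, 48.4 and 47.0 CPM in PZH replicates 1 to 6, against 40.7, 40.1, 41.3, 38.7, 39.6 and 40.5 CPM in the water replicates. In 4 PZH livers it was above every water liver and in PZH replicate 1 below every one, while the water livers lay close together. The means were 43.6 ± 4.92 CPM with PZH and 40.2 ± 0.937 CPM with water (SD, n = 6 each; log2 fold change 0.12, SE 0.10, 95% interval -0.09 to 0.33, edgeR adjusted p = 0.469). PZH replicate 2, the lowest for both 5p arms, was not the lowest for either 3p arm.

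**Figure D1:**
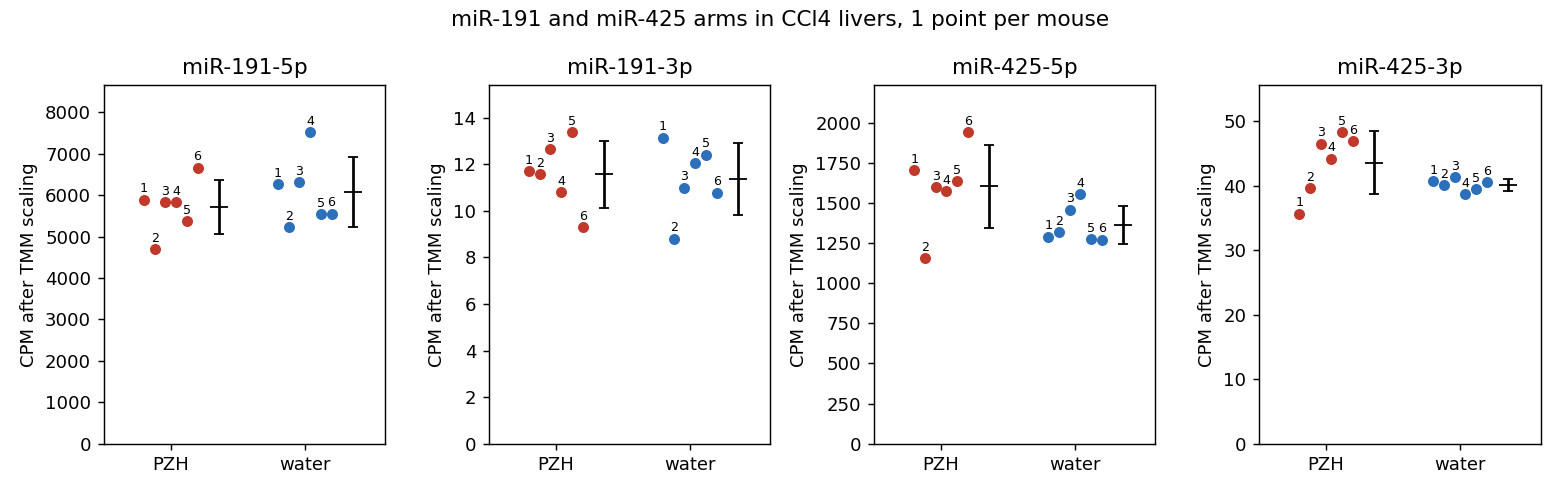
Level of each arm in CPM after TMM scaling (vertical axis, from 0) in PZH and water livers, 1 point per mouse with its replicate number; the bar gives the mean and SD. For miR-425-5p 5 PZH mice lie above all water mice and replicate 2 lies below them, while for miR-191-5p the groups overlap between 5237 and 6667 CPM, with PZH replicate 2 below and water replicate 4 above that stretch.

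The order of the 4 levels was the same in every library, with no overlap between neighbours in that order. miR-191-5p was 3.29 to 4.07 times as abundant as miR-425-5p in the PZH livers and 3.97 to 4.87 times in the water livers. In turn miR-425-5p exceeded miR-425-3p by 29.1 to 47.8 times with PZH and by 31.4 to 40.2 times with water, and miR-425-3p exceeded miR-191-3p by 3.05 to 5.05 times with PZH and by 3.10 to 4.56 times with water. The more abundant hairpin thus had the less abundant minor arm. These factors compare counts of miRNAs that are 21 to 23 bases long and take no account of how efficiently each is captured in a library.

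Among other miRNAs, 2 neighbours in level on each side were compared with each 5p arm, as means ± SD (n = 6 per group). Just above miR-191-5p stood miR-3074-5p, with 6411 ± 1408 CPM in PZH livers and 6701 ± 434 CPM in water livers, and miR-126b-3p, with 5345 ± 1005 CPM in PZH livers and 7159 ± 1257 CPM in water livers. Just below it stood miR-101a-3p, with 5105 ± 787 CPM in PZH livers and 6281 ± 480 CPM in water livers, and let-7c-5p, with 5856 ± 560 CPM in PZH livers and 5208 ± 784 CPM in water livers. Around miR-425-5p the order was closer still. Above it were miR-145a-3p, with 1617 ± 286 CPM in PZH livers and 1474 ± 164 CPM in water livers, and miR-20a-5p, with 1673 ± 143 CPM in PZH livers and 1376 ± 162 CPM in water livers. Below it were miR-185-5p, with 1535 ± 297 CPM in PZH livers and 1310 ± 144 CPM in water livers, and let-7d-5p, with 1390 ± 143 CPM in PZH livers and 1278 ± 135 CPM in water livers. In at least 1 group the mean of each neighbour differed from that of the member by less than the member's SD between mice. Of them miR-20a-5p was called higher and miR-101a-3p and miR-126b-3p lower with PZH (edgeR adjusted p = 0.0335, 0.0394 and 0.0429).

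Because both hairpins lie on the same strand within 1 host region, the ratio of their abundant arms was compared within each library, which removes library scaling from the measurement. The log2 ratio of miR-191-5p to miR-425-5p was 1.79, 2.02, 1.86, 1.89, 1.72 and 1.78 in PZH replicates 1 to 6, against 2.28, 1.99, 2.12, 2.28, 2.12 and 2.13 in the water replicates. In 5 of 6 PZH livers it was below every water liver, and PZH replicate 2 alone lay above the lowest water value, that of replicate 2. The mean was 1.84 ± 0.11 with PZH and 2.15 ± 0.11 with water (SD, n = 6 each), a difference of -0.31 on the log2 scale, or 0.807-fold. A two-sided exact permutation test over 924 assignments gave p = 0.00433, and adjusted over the 4 ratios tested it was 0.0173. With any 1 library left out, the difference lay between -0.35 and -0.28 and that adjusted exact permutation p between 0.0130 and 0.0260.

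The ratio of the minor arms had no difference past the threshold. The log2 ratio of miR-191-3p to miR-425-3p averaged -1.91 ± 0.25 with PZH and -1.82 ± 0.21 with water (SD, n = 6 each), a difference of -0.08 (two-sided exact permutation p = 0.541). PZH replicate 6 was lowest of all at -2.32 and PZH replicate 1 highest at -1.60, so the PZH values covered those of the water group. Whether the ratios of the abundant and the minor arms responded differently was not tested.

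**Figure D2:**
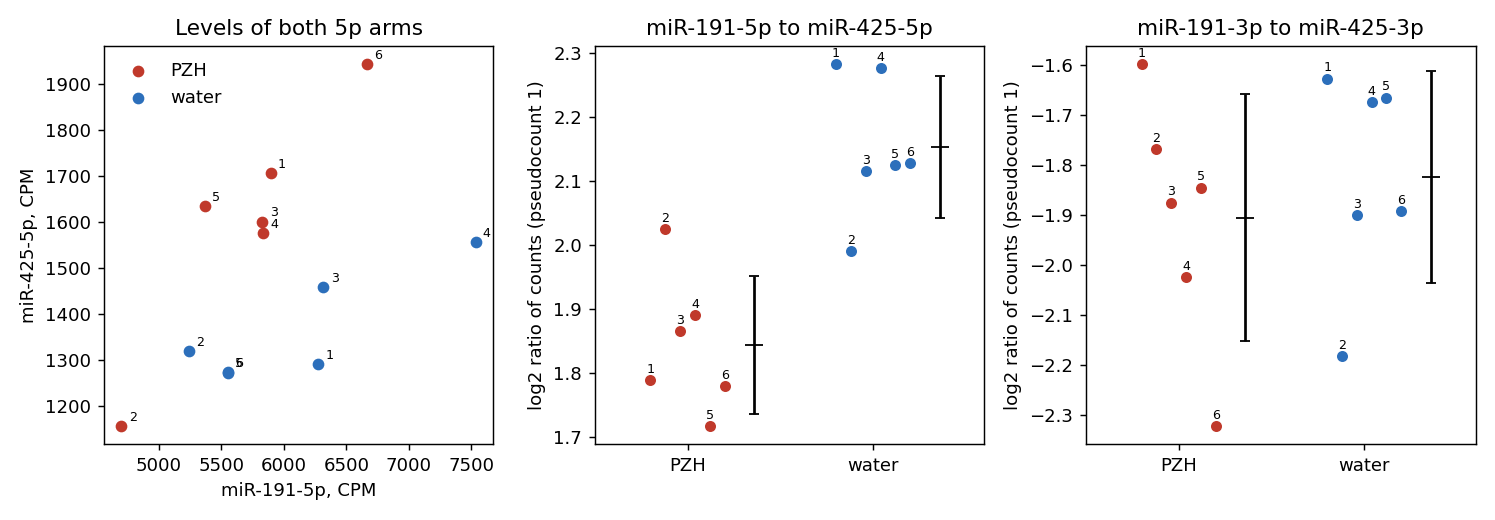
Left, miR-425-5p against miR-191-5p in CPM; middle and right, log2 ratio of counts of the 5p and of the 3p arms of the hairpins in PZH and water livers, 1 point per mouse with its replicate number, with mean and SD. At a given level of miR-191-5p most PZH mice lie higher in miR-425-5p, and 5 of 6 PZH mice have a 5p ratio below every water mouse, while the 3p ratios overlap.

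The difference in ratio was then set beside those of other neighbouring hairpins, a comparison added after the values of the members were seen. Arms whose name occurs at more than 1 locus in the RefSeq table were left out. Each hairpin entered by the more abundant of its remaining tested arms, if that arm averaged 20 counts or more. This gave 78 pairs of hairpins on the same strand, at most 10000 bases apart. Some hairpins thus entered by a minor arm, as 1 miR-194 hairpin by its 3p arm (47.0 CPM), not by miR-194-5p (38579 CPM). By limma over all 78 pairs, the ratio differed between PZH and water for 19, or 24.4%. The miR-191 and miR-425 pair was among them (difference -0.31, 95% interval -0.50 to -0.11, limma adjusted p = 0.0218), but its difference ranked only 36 in size. A called change of ratio between neighbours was thus not particular to this locus. The rank by size is a rough guide only. The 78 pairs mix abundant and minor arms, some have wide intervals, and successive pairs can share a hairpin. Chromosome 12 held 29 of the pairs, 8 of them called, and of the 49 pairs elsewhere 11 were called. The call ended without PZH replicate 5 or 6 or water replicate 1 or 4 (limma adjusted p between 0.0508 and 0.0548; range over all alternatives 0.0196 to 0.0928). In the miR-106b-25 cluster of chromosome 5, a locus with a similar layout, the ratio of miR-25-3p to miR-93-5p differed by -0.36 (limma adjusted p = 0.0210) and that of miR-93-5p to miR-106b-5p by 0.22 (limma adjusted p = 0.266).

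**Figure D3:**
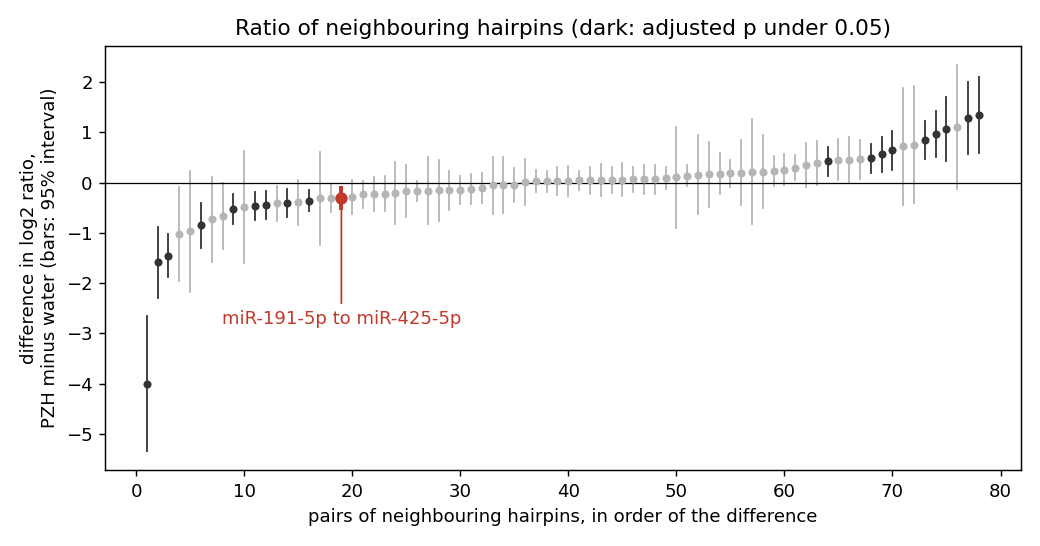
Difference in log2 ratio between PZH and water livers (vertical axis, with 95% interval) for 78 pairs of neighbouring hairpins, ordered by the difference; dark pairs have a limma adjusted p under 0.05. The miR-191-5p to miR-425-5p pair, in red at -0.31, lies among the 19 called pairs but well inside the range of all pairs.

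The choice of arm was compared next, by the ratio of 5p to 3p counts of each hairpin. For miR-191 the ratio was 497, 402, 458, 535, 397 and 708 in PZH replicates 1 to 6, against 475, 591, 568, 620, 444 and 506 in the water replicates. For miR-425 it was 47.6, 29.0, 34.3, 35.5, 33.7 and 41.3 with PZH and 31.6, 32.8, 35.1, 40.1, 32.1 and 31.2 with water. Both hairpins were strongly biased to the 5p arm in every liver, miR-191 ranking 9 and miR-425 ranking 30 of 137 hairpins in that bias. By limma over the 137 hairpins, of which 8.03% were called, the log2 ratio of miR-191 differed by -0.11 (95% interval -0.43 to 0.21, limma adjusted p = 0.664) and that of miR-425 by 0.11 (95% interval -0.16 to 0.38, limma adjusted p = 0.609). The spread of the miR-191 ratio also carries the counting error of its minor arm, which had 54 to 192 counts.

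Within each group the levels of miR-191-5p and miR-425-5p were positively correlated over mice, short of the threshold after adjustment. Pearson's r on log2 CPM was 0.94 in the PZH livers (exact permutation p = 0.0194; Spearman's rho 0.77, p = 0.103) and 0.84 in the water livers (exact permutation p = 0.0361; rho 0.60, p = 0.242), with n = 6 each. Adjusted over the 3 correlations computed, the permutation p of r was 0.0542 in both groups and the p of rho 0.200 with PZH and 0.242 with water. Over all 12 libraries r was 0.55 (permutation p = 0.0653, the same when adjusted) and rho 0.46 (permutation p = 0.134, adjusted 0.200), and r was 0.45 without the 2 libraries farthest from the median. Without its 2 farthest libraries r was 0.04 in the PZH group and 0.68 in the water group, so the relation in the PZH group rested on those livers. The values of a library share its depth and scaling. After centring on group means, the pair's r of 0.83 ranked 11 among the 78 neighbouring pairs, whose median was 0.41. Some of those pairs set an abundant arm beside a minor arm with few counts, which limits what the rank can show. Between the arms of a hairpin the centred r was low, 0.05 for miR-191-5p with miR-191-3p and 0.26 for miR-425-5p with miR-425-3p over the 12 libraries. Counting error of the minor arms can lower such an r. With 54 to 192 counts of miR-191-3p per library, its r cannot show whether the arms moved together.

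The miRNAs most like each 5p arm across the 12 libraries were different for the arms. Among 341 other miRNAs that averaged 10 CPM or more, those with the highest Pearson r to miR-191-5p were the hepatocyte miR-192-5p (0.77), the erythroid miR-144-5p (0.77), miR-1948-5p (0.76), miR-7a-5p (0.74) and miR-148b-5p (0.73). For miR-425-5p they were miR-339-3p (0.88), miR-361-5p (0.86), miR-411-5p (0.85), miR-185-5p (0.84) and miR-369-3p (0.79). Of the first 5 none was called, and of the second 5 miR-339-3p, miR-411-5p and miR-369-3p were called higher with PZH by edgeR (log2 fold changes 0.36, 0.90 and 0.91). Over all tested miRNAs 9.88% were called higher. The r spans both groups, so a difference of an arm between PZH and water enters the choice of miRNAs. The calls among them are therefore no separate result. Centred on group means, the r of those called was 0.84, 0.79 and 0.70. By this r over both groups, miR-425-5p itself ranked 41 in likeness to miR-191-5p (0.55). After centring on group means its r to miR-191-5p was 0.83, above those of the miRNAs named for that arm (0.73 to 0.78).

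As both 5p arms serve as qPCR references, they were set beside 18 other miRNAs used in that role. Of the 20 reference miRNAs, all tested, edgeR called 1 higher and 1 lower with PZH, against 9.88% higher and 11.4% lower over all tested miRNAs. These were miR-93-5p (1784 ± 153 CPM with PZH and 1400 ± 76.1 CPM with water; log2 fold change 0.35, edgeR adjusted p = 0.00324) and miR-30e-5p (10760 ± 1159 CPM with PZH and 13106 ± 775 CPM with water; log2 fold change -0.28, edgeR adjusted p = 0.0145; SD, n = 6). The median log2 fold change of the 20 was 0.05, against -0.03 over all 607. With no call, miR-103-3p stood at 0.15, miR-423-5p at 0.02, miR-423-3p at -0.05, miR-16-5p at -0.13, miR-484 at 0.18, miR-361-5p at 0.10, miR-186-5p at 0.12, miR-26a-5p at -0.06, miR-320-3p at 0.11 and let-7a-5p at 0.14. The others, likewise not called, were miR-25-3p at -0.01, miR-24-3p at 0.07, miR-151-5p at 0.03, miR-328-3p at 0.02, miR-324-5p at 0.14 and miR-345-5p at -0.23.

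**Figure D4:**
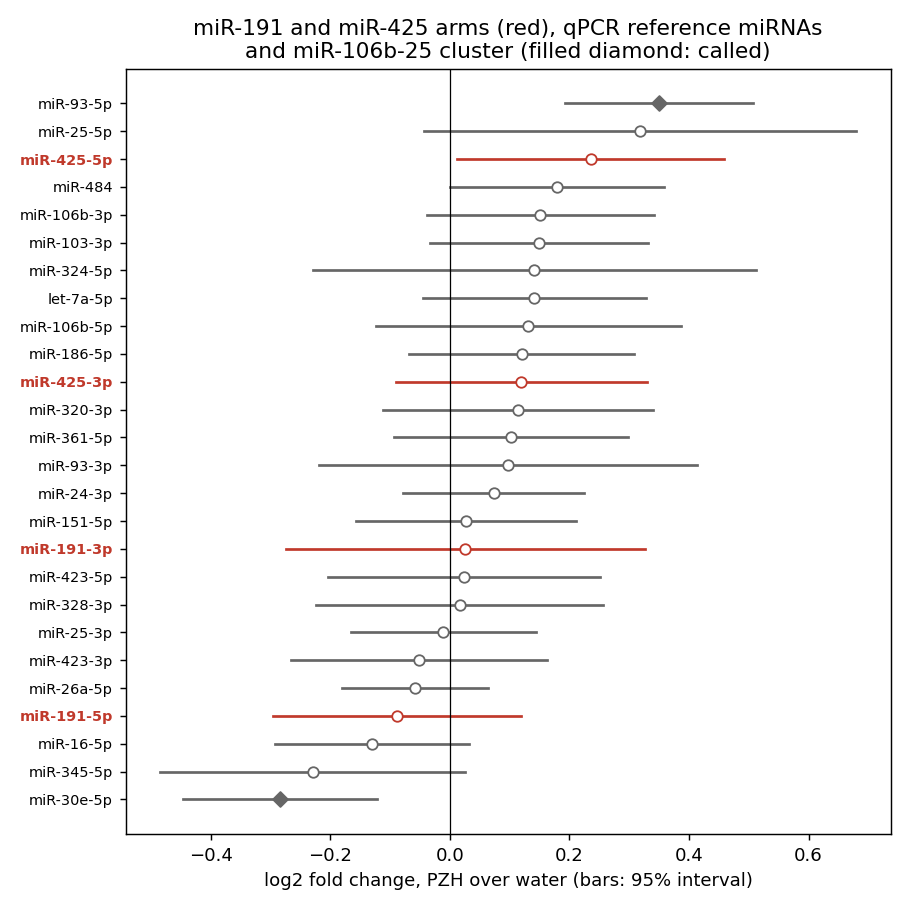
Log2 fold change of PZH over water with its 95% interval (edgeR) for the miR-191 and miR-425 arms in red, the reference miRNAs and the miR-106b-25 cluster; a filled diamond marks a call. The 4 arms lie between -0.09 and 0.24, and miR-93-5p and miR-30e-5p are the called miRNAs in the plot.

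Relative to the mean log2 count of the other 18 reference miRNAs in the same library, miR-191-5p stood at 2.69 ± 0.15 with PZH and 2.81 ± 0.19 with water (SD, n = 6 each; difference -0.12, two-sided exact permutation p = 0.268, adjusted over the 4 ratios 0.358). On the same scale miR-425-5p stood at 0.84 ± 0.23 with PZH and 0.65 ± 0.11 with water (SD, n = 6 each; difference 0.19, two-sided exact permutation p = 0.0866, adjusted 0.173). PZH replicate 2 was low in both, at 2.44 and 0.42. Without it the difference of miR-425-5p was 0.27 (adjusted exact permutation p = 0.0130; range over all alternatives 0.0130 to 0.300).

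The spread between mice of 1 group was then compared with that of the other abundant references. The SD of log2 CPM between mice, after centring on group means, was 0.18 for miR-191-5p and 0.20 for miR-425-5p. Each of the 11 other reference miRNAs that averaged 1000 CPM or more had a smaller SD, from 0.07 for miR-26a-5p to 0.16. That position rested on single libraries. Without PZH replicate 2 the SD of miR-425-5p was 0.12, above 6 of the 11, and without water replicate 4 that of miR-191-5p was 0.15, above 7 of the 11. With any other single library left out, each stayed above all 11, as did miR-191-5p without PZH replicate 2 and miR-425-5p without water replicate 4. Among all 75 tested miRNAs at that level, miR-191-5p ranked 52 and miR-425-5p 57 from the least variable. The SDs of the minor arms were 0.19 for miR-191-3p and 0.12 for miR-425-3p. The ranks are a description, with no test.

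**Figure D5:**
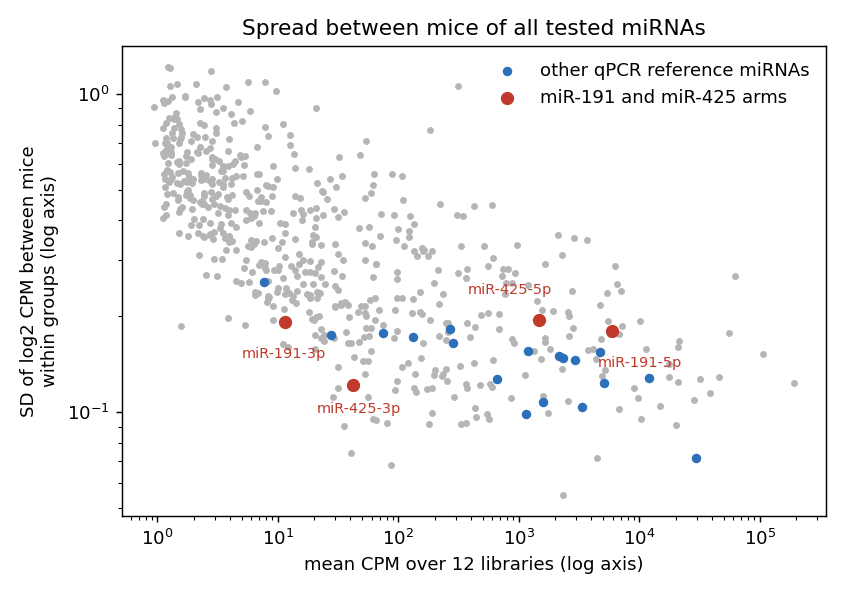
SD of log2 CPM between mice within groups against mean CPM over 12 libraries (both log axes) for the 607 tested miRNAs; the miR-191 and miR-425 arms are red and the other reference miRNAs blue. At 0.18 and 0.20, miR-191-5p and miR-425-5p lie above the other reference miRNAs of at least 1000 CPM, but without PZH replicate 2 miR-425-5p is at 0.12 and without water replicate 4 miR-191-5p is at 0.15.

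The miR-106b-25 cluster, 3 hairpins within the replication gene Mcm7, had 6 tested arms. Of these miR-93-5p was called higher, as given above, with each of the 6 PZH livers above every water liver. The others had no call, with log2 fold changes of 0.13 for miR-106b-5p, 0.15 for miR-106b-3p, 0.10 for miR-93-3p, -0.01 for miR-25-3p and 0.32 for miR-25-5p.

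Lists of cell type markers were counted beside the members, since the libraries are from whole liver, where fewer cells of a type and less RNA per cell cannot be told apart. Over all tested miRNAs 9.88% were called higher and 11.4% lower. Among hepatocyte markers 1 of 6 was called lower, miR-802-5p (log2 fold change -0.65), while miR-192-5p (-0.20), miR-194-5p (-0.14), miR-122-3p (-0.07), miR-122-5p (0.05) and miR-148a-3p (0.0037) were not called. Among 7 leukocyte markers miR-223-3p (-0.58) and miR-146a-5p (-0.47) were called lower and miR-342-3p (0.42) higher. The others, miR-155-5p (-0.34), miR-142a-3p (-0.32), miR-142a-5p (-0.27) and miR-150-5p (0.05), were not called. The summed level of the 7 ranged from 11036 to 16797 CPM with PZH and from 14008 to 17715 CPM with water. Both endothelial arms were called lower, miR-126a-3p (-0.36) and miR-126a-5p (-0.33), with sums of 10272 to 13900 CPM with PZH and 12863 to 17096 CPM with water. The 5 mesenchymal markers were not called by edgeR, with log2 fold changes of 0.19 for miR-145a-5p (adjusted p = 0.134, the only one of the 5 with an unadjusted p under 0.05), 0.16 for miR-214-3p, 0.07 for miR-199a-5p and miR-199b-3p and -0.02 for miR-143-3p, the most abundant of them. Their sums were 52788 to 92619 CPM with PZH and 63446 to 92359 CPM with water. The 4 erythroid markers were not called by edgeR either, with -0.31 for miR-451a (adjusted p = 0.130, the only one of the 4 with an unadjusted p under 0.05), -0.39 for miR-144-5p and -0.26 for miR-144-3p. The last of the 4, miR-486b-5p, stood at -0.13. Erythroid sums were 3237 to 5502 CPM with PZH and 3661 to 5759 CPM with water. Among 5 biliary and epithelial markers miR-200c-3p (-0.97) and miR-141-3p (-0.87) were called lower. The others, miR-200a-3p (-0.20), miR-429-3p (-0.17) and miR-200b-3p (-0.12), were not called. Biliary and epithelial sums were 864 to 1246 CPM with PZH and 931 to 2192 CPM with water, the highest in water replicate 2. No list's defining markers were at 0 in any group. Their part in the ratio of miR-191-5p to miR-425-5p was not tested.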

How the data were processed

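Small RNA of 12 mouse livers was sequenced. Libraries were made with a TruSeq Small RNA kit after Trizol extraction, per the labels' protocols. The deposited table holds raw counts per mature miRNA, with no normalization. The submitters' processing notes name cutadapt, FastQC, BWA, DESeq2 and GRCm38. The sources used here do not give versions, the counting tool, the miRNA annotation release or the handling of strand and of multi-mapped reads. No cell of the table held 1, while 3049 held 2, so a detected miRNA has at least 2 counts.

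Counts were tested with edgeR 4.0.16 (quasi-likelihood, TMM, default filter, adjusted p under 0.05 over 607 miRNAs) in R 4.3.3. SEs were derived from the test statistic. Logged CPM used a prior count of 2. Ratios used a pseudocount of 1, limma 3.58.1 for arm ratios (both arms with a mean of at least 20 counts) and neighbouring pairs, and exact permutation for 4 ratios. The edgeR step was tested on simulated counts. The limma step for arm ratios was tested on the real counts with some 5p arms thinned at random in the PZH libraries. For neighbouring pairs the limma step was not tested in this way. Alternatives tried were total-count, RLE and TMMwsp scaling, limma-voom, DESeq2 1.42.0 and robust edgeR, the filter dropped or raised to 10 CPM in 6 libraries, a replicate block, a pseudocount of 0.5, an arm minimum of 5 counts, a shorter reference list and omission of each library. Members, lists and tests were chosen with earlier results of these data known. The rule for named miRNAs took the 4 members, the reference list, up to 3 members of smallest p per cell type list, miRNAs with a member's seed, the 5 most like each 5p arm and the neighbours in level of each 5p arm. The miR-106b-25 arms were set beside them. Some marker miRNAs fall outside the smallest-p part of that rule and were added after their values were seen. These are miR-122-3p, miR-122-5p, miR-148a-3p, miR-143-3p, miR-199b-3p, miR-155-5p, miR-142a-3p, miR-142a-5p, miR-150-5p, miR-486b-5p, miR-429-3p and miR-200b-3p. Omission of each library was added for the spread between mice after the data were seen. The listed miR-486a-5p and miR-199a-3p had no matching row. All 4 members and 1647 of 1929 names matched the RefSeq sequence table. Nothing says whether replicate numbers pair mice, and no batch is labelled. The p-values set a difference or a correlation against the variation between mice, and the intervals cover no bias of library preparation.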

Additional observations from a re-analysis of the deposited data

Results flagged for a closer look

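Of the 20 sets of 6 values checked for a single distant library (4 arm levels and 6 ratios in each group), 1 had a sample far from the others, where chance flags about 1 set in 20. It was the log2 level of miR-425-5p relative to the other reference miRNAs in the PZH group, where PZH replicate 2 stood at 0.42 and the next lowest library at 0.85. The same library was the lowest of all 12 for miR-191-5p and miR-425-5p in CPM.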

How the results depend on the processing

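The number of called miRNAs lay between 94 and 140 over all alternatives, against 129. The log2 fold change of miR-425-5p moved past the threshold with the 10 CPM filter (0.32) and ranged from 0.17 to 0.33 with 1 library left out, past the threshold only without PZH replicate 2. DESeq2 and limma-voom called none of the 4 arms. With 1 library left out, miR-191-5p ranged from -0.14 to 0.0045 (positive only without water replicate 4), miR-191-3p from -0.046 to 0.077 (negative without water replicate 2 or PZH replicate 5, at -0.00011), and the log2 ratio of miR-191-3p to miR-425-3p from -0.15 to 0.0011, the positive value being without PZH replicate 6; the cause was not tested. The level of miR-425-5p against the reference miRNAs ranged from 0.14 to 0.27, and the ratio of the 5p arms among neighbouring hairpins from -0.35 to -0.28. The arm ratios of both hairpins kept their direction and stayed short of the threshold in all 15 alternatives each. Centred on group means, libraries of the same replicate number correlated between -0.15 and 0.08, and 1 of 6 water libraries correlated best with its own number, so the numbers were not taken as pairs. With a replicate block the ratio of miR-191-5p to miR-425-5p was unchanged at -0.31, with an exact sign-flip p of 0.0625 (adjusted over 4 ratios 0.250), where the smallest p this test can give is 0.0313, and with a limma adjusted p of 0.0928 among neighbouring hairpins. The block left 114 calls and ended or made no call of an arm. The 54 to 192 counts of miR-191-3p limit what can be said of that arm.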
